A study of Mus musculus with 15 samples.

Results

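The transcripts described here are the JAK kinases and STAT factors Jak1, Jak2, Jak3, Tyk2, Stat2, Stat3, Stat5a, Stat5b and Stat6. They were chosen by gene symbol, as 9 of the 561 genes counted on the nanoString nCounter Mouse Immunology panel. This assay counts the bar codes of probe pairs bound to mRNA, with no amplification step. The cells were RAW 264.7, a single established mouse macrophage line, and all 15 samples received 1 µg/ml of the bacterial endotoxin LPS together with extracellular vesicles (EVs) for 24 hours. EVs came from the plasma of female C57BL/6J mice of 6 to 8 weeks that were sham treated or had received whole-body ionizing radiation (WBIR), with 3 samples per group: sham EVs, 2 Gy day 3, 2 Gy day 7, 9 Gy day 3 and 9 Gy day 7 EVs, where the day is the time between exposure and EV collection. No group went without LPS or without EVs, so every difference below is between LPS-treated cells given EVs of different donors. The study's methods say that samples were run in triplicate and not whether the 3 samples of a group came from separate cultures or donors, so the samples may be technical repeats and p-values measure only the spread between these samples. The number of EVs per exposure and the lysis reagent differ between the sample labels and the study's methods.

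JAK kinases are tyrosine kinases bound to the inner side of cytokine receptors. When a cytokine draws its receptor chains together, the kinases phosphorylate each other and the receptor, STAT factors dock there and are phosphorylated in turn, and STAT dimers then move to the nucleus and bind DNA. In macrophages this route carries the signals of interferons, interleukin 6, interleukin 10, GM-CSF, and interleukins 4 and 13, and LPS engages it indirectly through the interferon beta and other cytokines that the cells release. The assay counted mRNA, so neither the amount of the proteins nor their phosphorylation was measured.

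Promoter windows are shown for the member that was higher with 9 Gy EVs (Tyk2), for the kinase that was lower in the 3 comparisons of 9 Gy EVs (Jak1), and for the member whose window held an interferon-type element (Stat2). They were taken from RefSeq (GRCm38.p6) as 250 bases before to 50 bases after an annotated transcript start, written 5′ to 3′ on the gene's strand. Capitals mark CCAAT boxes (CCAAT or its reverse complement) and GC boxes (GGGCGG or its reverse complement) in all 3 sequences, and in Stat2 also the interferon-stimulated response element (ISRE, here GAAA and GAAA with any 2 bases between them, on either strand). The windows lie at chr9:21131226-21131525 on the minus strand (Tyk2), chr4:101265174-101265473 on the minus strand (Jak1) and chr10:128270248-128270547 on the plus strand (Stat2).
Tyk2: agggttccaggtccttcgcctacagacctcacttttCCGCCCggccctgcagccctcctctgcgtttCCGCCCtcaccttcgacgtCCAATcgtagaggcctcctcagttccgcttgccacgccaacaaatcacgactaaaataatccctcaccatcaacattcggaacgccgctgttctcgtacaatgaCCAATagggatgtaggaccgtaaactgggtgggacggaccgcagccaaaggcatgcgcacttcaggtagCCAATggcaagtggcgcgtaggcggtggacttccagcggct
Jak1: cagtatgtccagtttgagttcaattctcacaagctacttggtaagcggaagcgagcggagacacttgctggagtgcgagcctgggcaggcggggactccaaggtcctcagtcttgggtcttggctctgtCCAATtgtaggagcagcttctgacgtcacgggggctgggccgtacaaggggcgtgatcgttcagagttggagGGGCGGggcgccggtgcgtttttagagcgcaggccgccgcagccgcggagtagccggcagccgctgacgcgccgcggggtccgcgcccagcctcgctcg
Stat2: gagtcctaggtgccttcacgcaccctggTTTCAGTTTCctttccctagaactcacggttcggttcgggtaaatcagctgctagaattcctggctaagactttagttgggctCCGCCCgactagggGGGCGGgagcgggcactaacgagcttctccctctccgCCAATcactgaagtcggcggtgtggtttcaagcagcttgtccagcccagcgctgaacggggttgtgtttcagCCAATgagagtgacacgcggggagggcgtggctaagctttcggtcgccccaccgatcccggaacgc
The Tyk2 window held 3 CCAAT boxes and 2 GC boxes, and the Jak1 window held 1 of each. The Stat2 window held 2 CCAAT boxes, 2 GC boxes and the ISRE, whose first base lies at position -222 from the start. All 9 members matched an entry, with 11 windows in all since Stat5a and Stat5b had 2 each. A GC box was present in 8 of the 11 windows, from 8 of the 9 genes, and in 35.9% of 32544 mouse promoter windows of the same length. A CCAAT box was present in 4 of the 11 windows (Jak1, Tyk2, Stat2 and Stat3) and in 37.4% of all windows, and the ISRE in 1 of the 11 and in 3.45%. The STAT dimer element GAS (TTCNNNGAA) was found in 0 of the 11 windows and in 8.33% of all windows. These matches describe the letters of the windows, and factor binding was not measured.

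Values are given as normalized counts, the raw count divided by the sample's geometric mean over the panel's 14 housekeeping genes and set to the mean of that value over the samples. Total raw counts per sample were between 43176 and 87899 in the 9 Gy day 3 group and between 453178 and 837995 in the other groups. For 2 of the 9 Gy day 3 samples, replicates 1 and 2, the title gives day 3 but another label gives day 7, and the title was followed. The labelled cell type was checked with 8 macrophage markers on the panel, including Csf1r and Cd14, which all had at least 20 counts in every sham, 2 Gy and 9 Gy day 7 sample, as did 5 of the 8 in every 9 Gy day 3 sample. Their summed normalized count was 20592 to 21466 in sham samples, 9126 to 10596 in the 9 Gy day 3 samples and 8270 to 9978 in the 9 Gy day 7 samples. Of the 9 T cell markers, 7 were under 20 counts in every sham sample. The summed normalized counts of T cell, B cell, NK cell and granulocyte markers were at most 265, 242, 44.3 and 72.5 in any sample. No defining marker was at 0, because the lowest deposited count is 1, and the part of these shifts in the results below was not tested. The study's methods give a fixed amount of RNA for each hybridization, so neither cell number nor RNA per cell can be read from these counts.

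Relative to the housekeeping genes, Tyk2 rose and Jak1 fell with 9 Gy EVs at both days, and Jak2, Jak3 and Stat3 fell with day 7 EVs. Tyk2 was higher under every scaling tried, but by median, TMM (trimmed mean of M values) or total-count scaling 0 members were lower at either day, and by total counts Jak1 was at 0.35 and 0.32, without a call, and Stat3 was called higher at both days. Stat3 also passed at day 3, in a call that most alternatives did not keep. Stat2, Stat5a, Stat5b and Stat6 did not pass the test against sham EVs. With 9 Gy day 3 EVs 2 of the 9 members were lower, against 41.3% of the 269 genes tested, and 1 was higher, against 11.2%. With 9 Gy day 7 EVs 4 were lower, against 49.1%, and 1 was higher, against 11.9%. The members' median log2 fold change was -0.48 at day 3 and -0.44 at day 7, beside -0.46 and -0.45 over all genes tested. The test was the quasi-likelihood one of edgeR, adjusted by Benjamini-Hochberg over all 269 genes, and errors of log2 fold changes are standard errors. Both 9 Gy comparisons share the same sham samples and are given side by side.

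**Figure D1:**
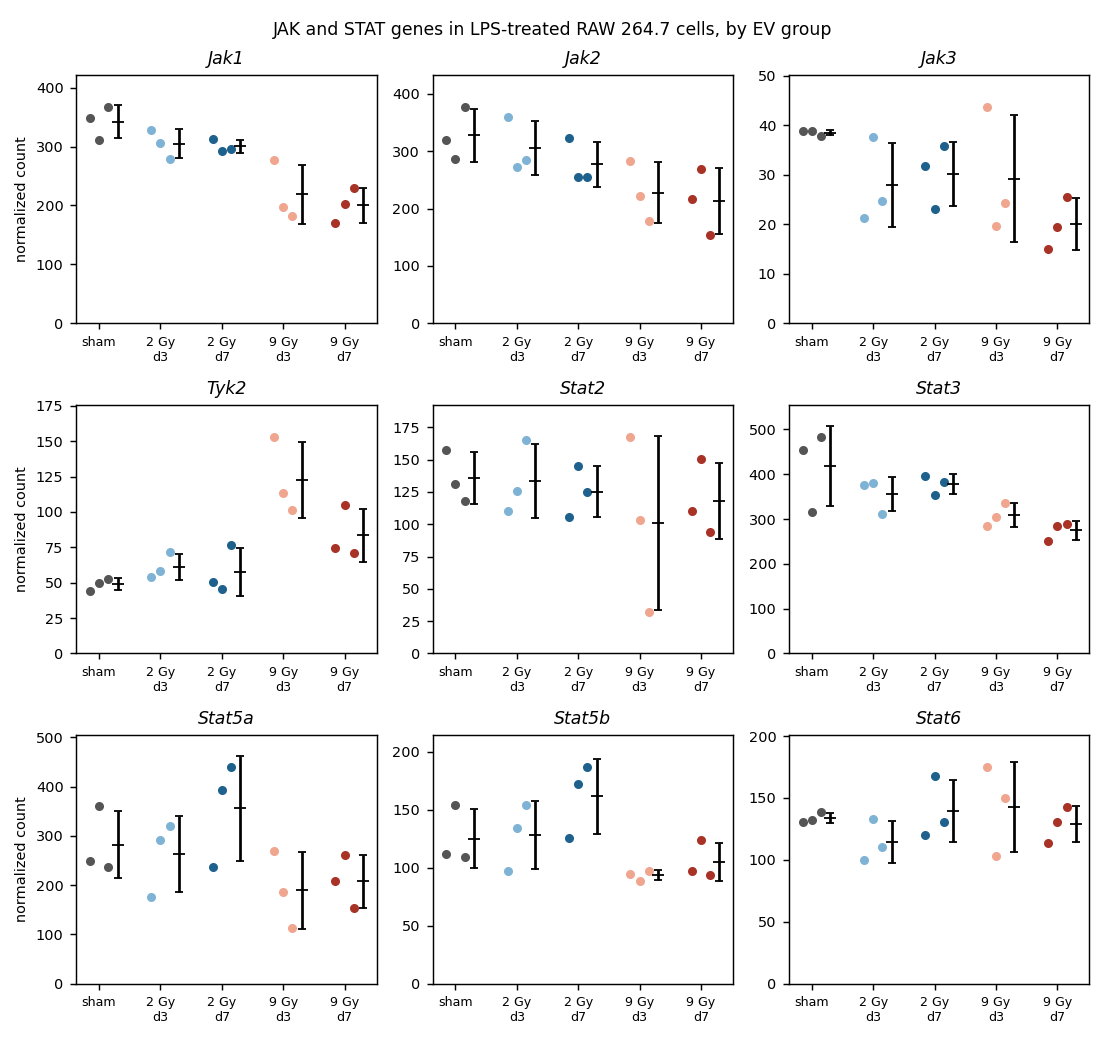
Normalized counts (vertical axis, from 0) of the 9 genes in each of the 15 samples, by EV group (sham, 2 Gy or 9 Gy at day 3, d3, or day 7, d7). Colored points are samples and the black bar beside them is the mean with its SD (n = 3); Tyk2 is highest in the 9 Gy day 3 group, at 122 ± 27, while Jak1 is lowest in the 2 groups with 9 Gy EVs.

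Jak1 serves the receptors of interferons, of the interleukin 6 family and of the interleukins that use the common gamma chain. Its normalized counts were 348, 312 and 367 in the sham samples, 277, 197 and 182 in the 9 Gy day 3 samples and 169.7, 202 and 229.5 in the 9 Gy day 7 samples. Every 9 Gy sample was below every sham sample. The means were 342 ± 28.2, 219 ± 50.7 and 200.4 ± 29.9 (SD, n = 3), and the log2 fold change was -0.67 ± 0.17 at day 3 (adjusted p = 0.00546) and -0.77 ± 0.16 at day 7 (adjusted p = 0.000786). With 2 Gy EVs Jak1 was at 328, 306 and 279 at day 3 and at 313, 292 and 296 at day 7. These values overlapped those of sham EVs and did not pass the test. The means fell in the order sham, 2 Gy day 3, 2 Gy day 7, 9 Gy day 3, 9 Gy day 7, and in that order the neighbouring groups overlapped except 2 Gy day 7 and 9 Gy day 3.

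Jak2 acts at the receptors of interferon gamma, GM-CSF and the interleukin 12 family. It was counted at 319, 286 and 377 in the sham samples, 284, 221 and 178 in the 9 Gy day 3 samples and 217, 269.8 and 153 in the 9 Gy day 7 samples. All 6 samples with 9 Gy EVs lay below all 3 sham samples, by a small distance for the highest of them at day 3. The log2 fold change was -0.55 ± 0.24 at day 3 (adjusted p = 0.0651) and -0.62 ± 0.21 at day 7 (adjusted p = 0.0220). The day 3 value passed by DESeq2 (adjusted p = 0.0419) and without replicate 1 of 9 Gy day 3 or replicates 2 or 3 of 9 Gy day 7 (adjusted p = 0.0383, 0.0491 and 0.0362). The day 7 call was lost without replicate 3 of 9 Gy day 7 (adjusted p = 0.0879) and without replicate 3 of the sham group (adjusted p = 0.0909). It was also lost with scaling to the brighter housekeeping genes, those with a mean of at least 100 counts (-0.41, adjusted p = 0.134), and with only the groups compared in the fit (adjusted p = 0.0541). The 2 Gy samples, at 359.7, 273 and 285 (day 3) and 323, 255 and 255 (day 7), overlapped sham.

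Jak3 pairs with the common gamma chain and is mainly a lymphocyte kinase. Its probe gave few counts, with raw counts of 4 to 6 in the 9 Gy day 3 samples, where a count of 4 has a 95% Poisson interval of 1.09 to 10.2 for counting error alone. The normalized counts were 38.8, 38.7 and 37.9 in the sham samples, 43.7, 19.7 and 24.3 in the 9 Gy day 3 samples and 15.1, 19.5 and 25.4 in the 9 Gy day 7 samples. The day 7 samples lay below all sham samples, and the day 3 samples lay on both sides of them. The log2 fold change was -0.94 ± 0.25 at day 7 (adjusted p = 0.00612), the largest decrease among the 9 members in that comparison, and -0.48 ± 0.37 at day 3 (adjusted p = 0.277). The sham samples of Jak3 were close to each other, with a mean of 38.5 ± 0.496. All samples with 2 Gy EVs, at 21.4, 37.6 and 24.8 at day 3 and 31.8, 23.1 and 35.8 at day 7, were also below them without passing the test.

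Tyk2 sits on the receptors of type I interferons, interleukin 10 and the interleukin 12 family. Its normalized counts were 44.4, 50.1 and 52.7 in the sham samples, 54.0, 58.5 and 71.6 in the 2 Gy day 3 samples and 50.8, 45.4 and 76.8 in the 2 Gy day 7 samples. With 9 Gy EVs they were 153, 113 and 101 at day 3 and 74.3, 105 and 71.1 at day 7. All samples with 9 Gy EVs were above all sham samples, and the day 3 group was above every 2 Gy sample. The means were 49.0 ± 4.27 (sham), 122 ± 27 (9 Gy day 3) and 83.5 ± 18.7 (9 Gy day 7) (SD, n = 3). Tyk2 was 2.43-fold higher at day 3 (log2 fold change 1.28 ± 0.26, adjusted p = 0.00109) and 1.70-fold higher at day 7 (0.76 ± 0.22, adjusted p = 0.00942). Ordered by log2 fold change from the highest, it was number 12 of the 269 genes at day 3 and number 25 at day 7.

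The raw counts of Tyk2 behind these values were 40, 53 and 57 in the sham samples, 123, 167 and 123 in the 9 Gy day 7 samples and 21, 23 and 25 in the 9 Gy day 3 samples. The housekeeping geometric mean was also higher in the 9 Gy day 7 samples (801 to 872) than in the sham samples (454 to 545), as were the raw counts of Stat6 (188 to 247 against 118 to 150), which did not pass the test. In the 9 Gy day 3 samples that geometric mean was 69.2 to 124, and the day 3 increase is relative to it. Tyk2 took 0.0704, 0.0727 and 0.0816 of every 1000 counts in the sham samples and 0.284 to 0.486 of every 1000 in the 9 Gy day 3 samples. Background could not be subtracted, as the control probes were not analysed here, and in the same 9 Gy day 3 samples the probe for Jak3 had 4 to 6 counts and that for Stat4, a STAT of lymphoid cells, had 1. With the 2 samples of conflicting day placed at day 7, the day 3 increase of Tyk2 rested on 1 sample and was 1.04 (adjusted p = 0.0833), and with them left out it was 1.04 (adjusted p = 0.0556). The day 7 increase was then 0.94 (adjusted p = 0.00402) and 0.76 (adjusted p = 0.0114).

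Stat3 carries the signals of interleukins 6 and 10. It was counted at 455, 316 and 483 in the sham samples, 284, 305 and 337 in the 9 Gy day 3 samples and 251, 285 and 289.6 in the 9 Gy day 7 samples. The day 7 samples lay below all sham samples, and at day 3 1 sample lay above the lowest sham sample. The log2 fold change was -0.60 ± 0.16 at day 7 (adjusted p = 0.00485) and -0.43 ± 0.17 at day 3 (adjusted p = 0.0447). The day 3 call was lost in 11 of the 15 fits that left out 1 sample, with changes of -0.43 to -0.31 in those 11. These were the fits without replicates 1 or 2 of 9 Gy day 3, replicates 2 or 3 of 9 Gy day 7, replicates 1 or 2 of 2 Gy day 3, any replicate of 2 Gy day 7, and replicates 1 or 3 of sham. It was also lost with no filter on low counts (adjusted p = 0.101), with only the groups compared in the fit (adjusted p = 0.143), with the replicate number as a block (adjusted p = 0.0577), with scaling to the brighter housekeeping genes (adjusted p = 0.216), and with the samples of conflicting day placed at day 7 or left out (-0.31 for both, adjusted p = 0.352 and 0.375).

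Stat2 acts downstream of the type I interferon receptor. It had the largest pooled SD within groups, 0.60 on the log2 scale, beside 0.47 for Stat5a, 0.18 for Stat3 and 0.19 for Jak1. This came mainly from the 9 Gy day 3 group, where the SD was 66.8% of the mean. In the other groups it was 14.7% to 24.7%, beside 24.0% to 29.9% for Stat5a. The normalized counts of Stat2 were 157, 131 and 118 in the sham samples, 167, 103 and 32.4 in the 9 Gy day 3 samples and 109.9, 150.3 and 93.7 in the 9 Gy day 7 samples. Replicate 3 of 9 Gy day 3 was far below its group, on a raw count of 8 beside 23 and 21. The log2 fold change was -0.53 ± 0.39 at day 3 (adjusted p = 0.264) and -0.20 ± 0.32 at day 7 (adjusted p = 0.597). Without that replicate the day 3 value was -0.04 (adjusted p = 0.930), and without replicate 1 of the group it was -1.04 (adjusted p = 0.0471). Replicate 3 is also the sample of this group with no conflict between its labels. With the samples of conflicting day placed at day 7 or left out, the day 3 value rested on that sample alone and was -2.06 in both fits (adjusted p = 0.00521 and 0.00711), where a lone sample is assumed to vary like the other groups.

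Stat5a and Stat5b transmit GM-CSF, prolactin and common gamma chain signals, and their genes lie 346 bases apart on chromosome 11, with Stat3 1636 bases beyond Stat5a (RefSeq, GRCm38.p6). Stat5a was at 248, 359.8 and 238 in the sham samples, 269, 187 and 114 in the 9 Gy day 3 samples and 208, 262 and 154 in the 9 Gy day 7 samples. Stat5b was at 112, 154 and 109, 94.6, 88.5 and 97.3 and 97.2, 124 and 93.7 in the same groups. Stat5a groups overlapped, and for Stat5b only the day 3 samples lay below all sham samples. The log2 fold change of Stat5a was -0.61 ± 0.35 at day 3 (adjusted p = 0.157) and -0.44 ± 0.32 at day 7 (adjusted p = 0.241). For Stat5b it was -0.42 ± 0.25 (adjusted p = 0.172) and -0.25 ± 0.21 (adjusted p = 0.305). Within a sample the raw count of Stat5a was 1.81 to 2.36 times that of Stat5b with sham or 2 Gy EVs and 1.65 to 2.14 times with 9 Gy day 7 EVs. In the 9 Gy day 3 samples, with 28 to 38 counts of Stat5a and 13 to 24 of Stat5b, it was 1.17 to 2.85 times.

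Stat6 mediates the signals of interleukins 4 and 13. It was at 131, 132 and 139 in the sham samples, 175, 103 and 150.0 in the 9 Gy day 3 samples and 114, 131 and 143 in the 9 Gy day 7 samples. The groups overlapped at both days. Its log2 fold change was 0.07 ± 0.21 at day 3 (adjusted p = 0.776) and -0.05 ± 0.18 at day 7 (adjusted p = 0.809), so on this scale it lay above the panel's median change of -0.46 and -0.45.

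**Figure D2:**
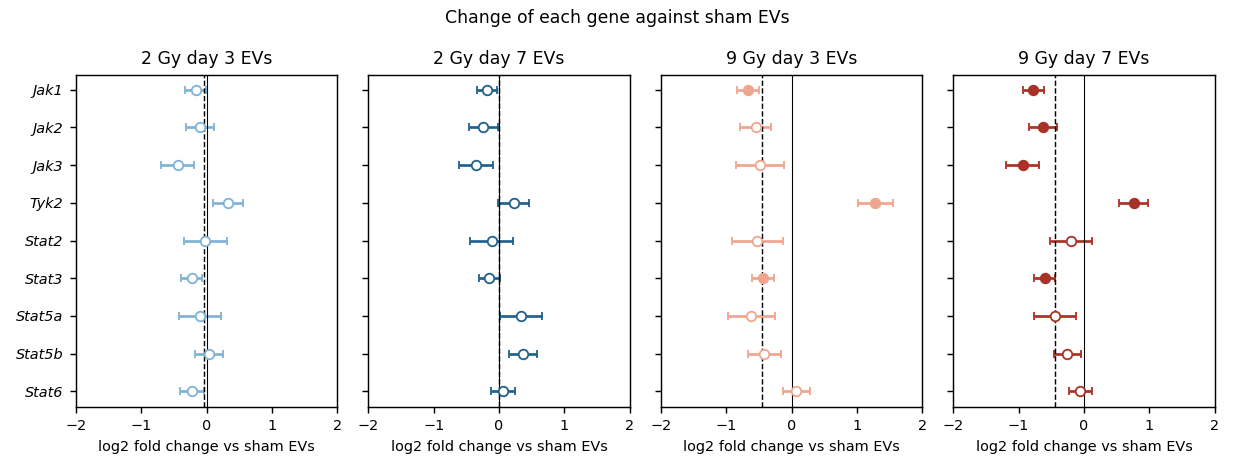
Log2 fold change against sham EVs (horizontal axis) of each gene for the 4 groups with EVs of irradiated mice, with standard errors. Filled points passed an adjusted p of 0.05 and open points did not, the solid line is 0 and the dashed line is the median of all 269 genes tested; with 9 Gy EVs Tyk2 lies to the right of both lines, at 1.28 and 0.76, and 7 of the other members lie to the left of 0 at both days.

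Counting the members whose samples did not overlap with sham gave 4 of 9 with 9 Gy day 3 EVs (Jak1, Jak2, Tyk2 and Stat5b), against 55.8% of all genes tested. It gave 5 of 9 with 9 Gy day 7 EVs (Jak1, Jak2, Jak3, Tyk2 and Stat3), against 61.7%. Neither share exceeded that of the whole panel.

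How far these directions depend on the reference was examined because the housekeeping genes did not move together. Of the 13 housekeeping genes tested, 6 fell and 3 rose in the 9 Gy day 3 comparison, and 4 fell and 4 rose in the 9 Gy day 7 comparison, from Rpl19 (-0.74 and -0.87) to Tubb5 (1.38 and 1.63). Scaling by TMM, which centers the panel on its own bulk, set the median log2 change of all genes to 0.01 and 0.03, and scaling by total counts set it to 0.56 and 0.65. Tyk2 was higher under each of the 5 scalings tried, with log2 fold changes of 1.75 and 1.24 by TMM and 2.31 and 1.88 by total counts. By TMM or median scaling no member was lower in either comparison, and Stat6 was higher beside Tyk2, with 0.54 (adjusted p = 0.0262) and 0.43 (adjusted p = 0.0335) by TMM. Jak1 was at -0.20 and -0.29 by TMM and at 0.35 and 0.32 by total counts, none past the threshold. By total counts 0 members were lower, and 3 were higher at day 3 (Tyk2, Stat3 and Stat6) and 5 at day 7 (Tyk2, Stat2, Stat3, Stat5b and Stat6). Stat3, lower by the housekeeping genes, was thus called higher, at 0.58 (adjusted p = 0.0207) and 0.49 (adjusted p = 0.0279). The decreases of Jak1, Jak2, Jak3 and Stat3 are given relative to all 14 housekeeping genes, and relative to the brighter ones Jak2 at day 7 and Stat3 at day 3 were not called.

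**Figure D3:**
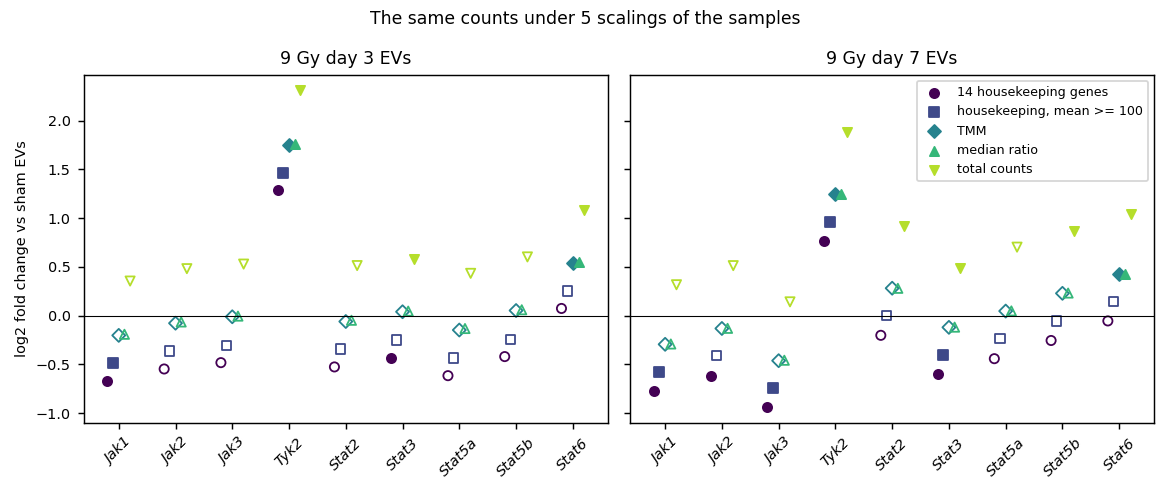
Log2 fold change against sham EVs (vertical axis) of each gene with 9 Gy day 3 EVs (left) and 9 Gy day 7 EVs (right) under 5 ways of scaling the samples, named in the legend. Filled markers passed an adjusted p of 0.05; Tyk2 is above 0 and filled under all 5, while the other members move across 0 between scalings, except Stat6 at day 3, for example Jak1 from -0.67 to 0.35 at day 3.

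With 2 Gy EVs 0 of the 9 members passed the test at day 3 and 0 at day 7, as did 0% of all genes at each day (edgeR). At an unadjusted p under 0.05 there were 0 members at either day, and 7 and 1 of all genes, and DESeq2 also called 0 members. Log2 fold changes of the members were between -0.44 (Jak3) and 0.32 (Tyk2) at day 3 and between -0.36 (Jak3) and 0.36 (Stat5b) at day 7. Jak3 and Tyk2 did not overlap with sham at day 3, against 13.0% of all genes, and Jak3 did not at day 7, against 4.09%. The sham samples of Jak3 lay within a narrower range than their counting error. With 2 Gy EVs Tyk2 was 0.32 ± 0.23 above sham at day 3 and 0.22 ± 0.23 at day 7 on the log2 scale. The day 7 value became -0.03 without replicate 3 of that group.

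The direct comparison of doses set the average of the 9 Gy groups against that of the 2 Gy groups, with no sham samples. Samples of a dose with the same replicate number deviated together. The test treats them as independent, so the standard errors and p-values of this comparison may be too small. Of the 9 members 5 were lower with 9 Gy EVs, against 52.0% of all genes, and 1 was higher, against 15.6%. Tyk2 was higher by 0.75 ± 0.17 on the log2 scale (adjusted p = 0.00147). Jak1 was lower, at -0.54 ± 0.12 (adjusted p = 0.00102), and was the 1 member whose 6 samples per dose did not overlap, against 43.9% of all genes. Jak2 was at -0.41 ± 0.16 (adjusted p = 0.0330) and Stat3 at -0.33 ± 0.12 (adjusted p = 0.0220). Stat5a and Stat5b, which had not passed against sham EVs, were lower here, at -0.65 ± 0.24 (adjusted p = 0.0265) and -0.54 ± 0.16 (adjusted p = 0.00946). The means of Stat5a and Stat5b were highest in the 2 Gy day 7 group, at 356 ± 107 and 161 ± 32.0 (SD, n = 3). Jak3 (-0.31 ± 0.23, adjusted p = 0.234), Stat2 (-0.30 ± 0.25, adjusted p = 0.303) and Stat6 (0.09 ± 0.14, adjusted p = 0.571) did not pass the test. With the 9 Gy day 3 group left out of the fit, so that day 7 EVs of both doses were compared, Tyk2 was higher by 0.54 (adjusted p = 0.0555). Jak2 was then not called (-0.38, adjusted p = 0.136), nor with no filter on low counts (adjusted p = 0.0511). By TMM or median scaling, Tyk2 and Stat6 were the members called, both higher. By total counts 0 members were lower and 8, all except Stat5a, were higher, with Jak1 at 0.59 (adjusted p = 0.000819) and Stat3 at 0.80 (adjusted p = 8.42e-05), while 36 of all genes were lower and 168 higher. With the brighter housekeeping genes Jak1 stayed lower, and Jak2 (adjusted p = 0.257), Stat3 (adjusted p = 0.277), Stat5a (adjusted p = 0.113) and Stat5b (adjusted p = 0.0706) did not pass. The call of Jak2 was lost without replicates 2 or 3 of 9 Gy day 3, replicates 1 or 3 of 9 Gy day 7, or replicate 1 of either 2 Gy group (-0.42 to -0.32 in these fits), and that of Stat3 without replicate 2 of 2 Gy day 3. The call of Stat5a was lost without replicates 2 or 3 of 9 Gy day 3, replicate 3 of 9 Gy day 7, or replicates 2 or 3 of either 2 Gy group (-0.65 to -0.50 in these fits). With the samples of conflicting day placed at day 7 or left out, Stat2 was lower, at -1.04 (adjusted p = 0.00401) and -1.06 (adjusted p = 0.00478), where the day 3 arm is 1 sample that is assumed to vary like the other groups. Stat3 then did not pass (adjusted p = 0.133 and 0.142), nor did Stat5b with them left out (adjusted p = 0.0681).

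A ratio of raw counts of 2 members within a sample does not depend on how samples are scaled. All 36 pairs were compared between the 6 samples with 9 Gy EVs and the 6 with 2 Gy EVs by a two-sided exact permutation test, with adjustment over the 36 pairs, and 9 differed. Tyk2 was higher relative to 7 of the 8 other members. The log2 ratio of Tyk2 to Stat5a rose from -2.34 ± 0.47 to -0.94 ± 0.48 (SD, n = 6 per dose), a difference of 1.40 (exact permutation test, adjusted p = 0.0111). Relative to Jak1 the difference was 1.31 and relative to Jak2 it was 1.19 (adjusted p = 0.0111 for both in the exact test). In 6 of these pairs the samples of the doses did not overlap, and Tyk2 relative to Jak3 did. Relative to Stat6 Tyk2 differed by 0.67, which did not pass (exact permutation test, adjusted p = 0.0567). The other pairs that differed were Jak1 and Stat5b relative to Stat6, lower by 0.64 (adjusted p = 0.0173, exact test) and lower by 0.62 (adjusted p = 0.0111, exact test). Within day 7 alone the differences of Tyk2 to the 8 members were 0.65 to 1.31 and within day 3 they were 0.69 to 1.66, all in favor of Tyk2, where 3 samples against 3 cannot give an exact p below 0.1. The pairs with Tyk2 share that gene and are not independent of each other. Since samples of a dose with the same replicate number deviated together, the 6 samples of a dose may stand for only 3 independent units, and the exact p-values, which treat them as 6, may be too small.

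**Figure D4:**
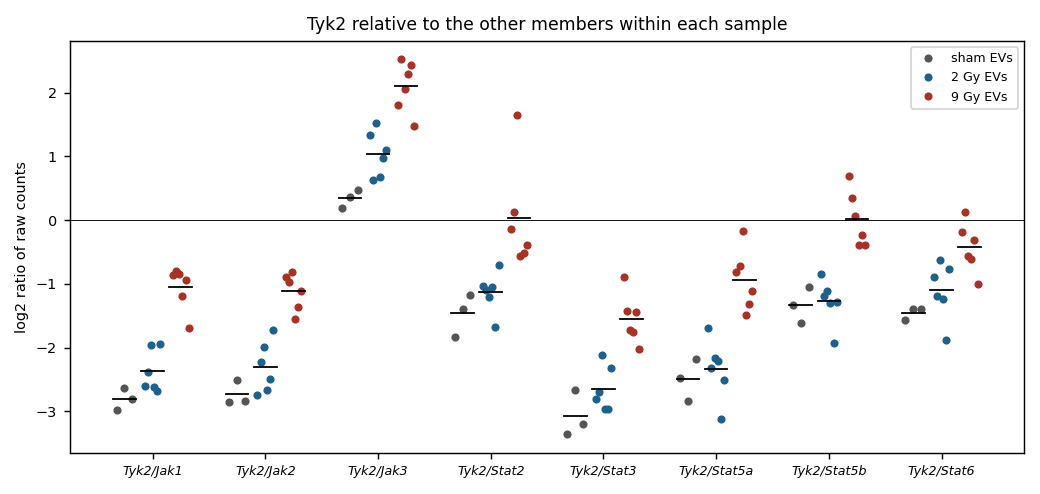
Log2 ratio of the raw count of Tyk2 to that of each other member within a sample (vertical axis) with sham (3 samples), 2 Gy (6) and 9 Gy EVs (6). Points are samples and black lines are means; the 9 Gy samples lie above all 2 Gy samples for Jak1, Jak2, Stat2, Stat3, Stat5a and Stat5b and overlap them for Jak3 and Stat6.

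Between days the members did not differ in the fit over all samples. With 9 Gy EVs 0 of 9 members differed between day 7 and day 3, with 0% of all genes called and 0 members at an unadjusted p under 0.05, and DESeq2 also called 0. Tyk2 was lower at day 7 by the widest margin, at -0.52 ± 0.25 (adjusted p = 0.986). With the samples of conflicting day placed at day 7 the difference was -0.10, and with them left out it was -0.28. With 2 Gy EVs 0 of 9 members differed, again with 0% of all genes called. Stat5a was 0.44 ± 0.32 and Stat5b 0.33 ± 0.21 higher at day 7 on the log2 scale (adjusted p = 0.998 for both). No planned fit called a member between these days. Samples of the 2 Gy groups that share a replicate number deviated together, and a fit of these 2 groups alone with that number as a block was chosen after seeing the data. In that edgeR fit Stat5a was higher at day 7 by 0.44 ± 0.08 (adjusted p = 0.00819) and Stat5b by 0.33 ± 0.09 (adjusted p = 0.0412), while 27 of the 269 genes passed. In the 3 pairs Stat5a went from 175, 293 and 320.2 at day 3 to 236, 394 and 439 at day 7, and Stat5b from 96.7, 134 and 154 to 125, 172 and 186, an increase in every pair. The test of whether the difference between days itself differed between doses called 0 members and 0% of all genes, with 0 members and 4 genes at an unadjusted p under 0.05 (edgeR), and DESeq2 called 0 members.

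Other genes of the pathway were counted from lists of receptors, ligands, inhibitors and target genes. Of 24 receptor chains on the panel 14 were tested. In the comparison of 9 Gy day 3 with sham EVs 7 fell and 1 rose, in that of day 7 EVs 8 fell and 1 rose, against 41.3% and 49.1% of all genes lower and 11.2% and 11.9% higher. The median log2 changes were -0.62 and -0.85, beside -0.46 and -0.45 for all genes. Values below are given in this order, day 3 then day 7. Il2rg, the common gamma chain that binds Jak3, was at -1.96 and -1.61 on the log2 scale (adjusted p = 5.72e-07 and 6.74e-07). Crlf2, a chain of the TSLP receptor, was at -1.80 and -1.58 (adjusted p = 7.2e-06 and 4.61e-06). Ifngr2, the chain of the interferon gamma receptor that binds Jak2, was at -1.44 and -1.61 (adjusted p = 0.000199 and 2.79e-05). Ifnar2, a chain of the type I interferon receptor, was at -1.09 and -0.93 (adjusted p = 0.00026 and 0.000365). Il15ra was the receptor chain that rose, by 1.13 ± 0.41 and 0.95 ± 0.34 (adjusted p = 0.0327 and 0.0244). Il2rg, Crlf2 and Il15ra kept their direction and their call by median, TMM and total-count scaling, whereas Ifngr2 lost its call and Ifnar2 changed sign under at least 1 of them.

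Of 26 ligands on the panel 10 were tested, 6 lower and 1 higher at day 3 and 7 lower and 1 higher at day 7, against 41.3% and 49.1% of all genes lower and 11.2% and 11.9% higher. The median log2 change at day 7 was -1.66, beside -0.45 for all genes, and none is given at day 3, where several ligands had few counts. Il6, the main ligand upstream of Stat3, had raw counts of 2290 to 4483 in sham samples, 4 to 13 in the 9 Gy day 3 samples and 61 to 101 in the 9 Gy day 7 samples. It was called lower at both days (adjusted p = 3.4e-08 and 1.43e-08), at -6.02 ± 0.35 on the log2 scale at day 7. Il12b and Il23a, which form interleukin 23 and signal through Jak2 and Tyk2, had few counts with 9 Gy EVs. Raw counts of Il12b were 76 to 113 in sham samples, 1 in each 9 Gy day 3 sample, the lowest count in the files, and 4 to 13 in the 9 Gy day 7 samples. Those of Il23a were 126 to 399, 1 to 4 and 13 to 21. Both were called lower at both days. No fold is given for Il6 at day 3, or for Il12b and Il23a at either day, where their level above background is not known. Ebi3, a subunit of interleukin 27, was at -2.17 and -2.01. Ifnb1, interferon beta, whose receptor uses Jak1 and Tyk2, rose by 4.25 ± 0.68 and 3.95 ± 0.65 (adjusted p = 0.000158 and 0.000167), from raw counts of 10 to 40 in the sham samples. The size of this increase is uncertain, as the level of those sham counts above background is not known. The normalized counts of Ifnb1 were 18.9, 37.8 and 9.25 in the sham samples, 669.7, 477 and 150.0 in the 9 Gy day 3 samples and 436, 447 and 145 in the 9 Gy day 7 samples. All 9 Gy samples were above all sham samples, with replicate 3 lowest at both days. These 5 ligands had the same direction and call by median, TMM and total-count scaling.

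Of 5 inhibitors on the panel 3 were tested, with 0 lower at day 3 and 1 at day 7, against 41.3% and 49.1% of all genes. Socs3, which STAT3 induces and which blocks gp130 receptors, was the 1 that passed, at day 7, and is named because of that count. Its normalized counts were 182, 56.7 and 252 in the sham samples, 14.6, 19.7 and 101 in the 9 Gy day 3 samples and 17.5, 13.2 and 61.9 in the 9 Gy day 7 samples. Samples overlapped in both comparisons. The log2 fold change of Socs3 was -2.39 ± 0.69 at day 7 (adjusted p = 0.00866), on raw counts of 29, 21 and 107. At day 3 the raw counts were 2, 4 and 25, so no fold is given, and the gene was not called (edgeR, adjusted p = 0.105). The phosphatases Ptpn2 (0.38 ± 0.24 and 0.04 ± 0.21) and Ptpn6 (-0.12 ± 0.20 and -0.15 ± 0.19) did not pass. Stat4, Socs1 and Cish had too few counts to be tested.

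Of 14 target genes on the panel 11 were tested, 5 lower and 1 higher at day 3 and 5 lower and 2 higher at day 7. These shares were near those of all genes, of which 41.3% and 49.1% were lower and 11.2% and 11.9% higher. The median log2 changes of the list, -0.23 and -0.01, lay above those of all genes, -0.46 and -0.45. Irf7, an interferon-induced transcription factor, was at -2.44 ± 0.26 and -2.36 ± 0.25, and Il1rn, the interleukin 1 receptor antagonist, was at -2.35 ± 0.58 and -2.80 ± 0.59 on the log2 scale. Bst2, an interferon-induced membrane protein, was at -1.54 and -1.43. Bcl6, a repressor that STATs regulate, was called lower at both days. It was at -0.82 at day 7, where its sign changed by total counts (0.28). No fold is given at day 3, on raw counts of 7 to 9. Cxcl10, a chemokine induced by interferons, rose by 2.32 ± 0.41 and 2.08 ± 0.41 (adjusted p = 0.000359 and 0.000602). With 2 Gy EVs 0 genes of any of these lists passed the test at either day.

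The tested gene with the pattern most like each member was found among 260 other genes by the root mean square difference over the 4 log2 fold changes against sham EVs. Tyk2 was most like Irgm1, an interferon-induced GTPase, which was at 1.31 and 0.94 with 9 Gy EVs (difference 0.161, with a median of 1.13 over the other genes). Jak1 was most like Npc1 (0.0511), Jak2 most like App (0.0810) and Jak3 most like Runx1 (0.155). Stat2 was most like Gusb (0.0830), Stat3 most like Ikbkg (0.0535), Stat5a most like Il27 (0.0939), Stat5b most like Tnf (0.121) and Stat6 most like Tnfrsf14 (0.0865). Among the members Jak2 and Stat3 were the nearest pair (0.0987), Stat5a and Stat5b were each nearest to the other (0.152), and Tyk2 was the farthest from each of the other 8, at differences of 0.783 (Stat6) to 1.32 (Jak3).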

How the data were processed

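The authors deposited the raw count of each panel gene in each sample, as whole numbers. Their own normalization used nSolver v4.0, whose settings are not given in the sources used here. Samples were grouped by title. Each sample was scaled by its geometric mean over 14 housekeeping genes. Genes averaging 20 counts or more across the 15 samples, 269 in number, entered a single edgeR 4.0.16 quasi-likelihood fit of all 5 groups (R 4.3.3, prior count 0.125, Benjamini-Hochberg adjustment over all 269 genes, threshold 0.05). Standard errors of log2 fold changes were derived from the F statistic. All 9 members passed the filter. Ratios within samples were compared by exact permutation with scipy 1.17.1. The procedure was tested on simulated data in which the housekeeping genes did not change and all genes had the same spread. That test does not cover the choice of reference.

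All members are named. From each pathway list up to 4 genes per direction are named that passed in both 9 Gy comparisons with sham, those with the largest mean change, and for each member the most alike gene. The members and lists were chosen with earlier results of these data known. Replicates of each group differed by more than sampling noise, and none was merged. Deviations of samples with the same replicate number correlated above 0.1 in every pair for 2 of the 10 pairs of groups, the days of each dose (0.392 to 0.782 for 2 Gy and 0.350 to 0.730 for 9 Gy). Alternatives were other scalings, filters, a floor of 20 counts, only the groups compared, the replicate number as a block, other placements of the samples with conflicting days, DESeq2 1.42.0 and leaving out each sample. Depth was lowest in the 9 Gy day 3 group, where Poisson intervals cover counting error only. Gene positions, sequences and motifs came from RefSeq tables for GRCm38.p6. One further gene of the pathway is not reported here.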

Additional observations from a re-analysis of the deposited data

How the results depend on the processing

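Scaling decided most directions of the members other than Tyk2. With median scaling the number of members called was 2 for 9 Gy day 7 EVs and 2 for 9 Gy against 2 Gy EVs, as it was with TMM (2 and 2), and scaling to the brighter housekeeping genes (mean of 100 counts or more) gave 2 for 9 Gy against 2 Gy. Sign changes with 9 Gy day 3 EVs were, by median and TMM, Stat3 at 0.047 and 0.040 and Stat5b at 0.061 and 0.053, and by total counts Jak1 0.35, Jak2 0.48, Jak3 0.53, Stat2 0.51, Stat3 0.58, Stat5a 0.43 and Stat5b 0.60. With 9 Gy day 7 EVs they were, by median and TMM, Stat2 at 0.28 and 0.28, Stat5a at 0.049 and 0.047, Stat5b at 0.23 and 0.23 and Stat6 at 0.43 and 0.43. By total counts they were Jak1 0.32, Jak2 0.51, Jak3 0.14, Stat2 0.92, Stat3 0.49, Stat5a 0.70, Stat5b 0.87 and Stat6 1.04, and by the brighter housekeeping genes Stat2 0.0023 and Stat6 0.14. For 9 Gy against 2 Gy EVs they were, by median and TMM, Jak2 at 0.030 and 0.043, Jak3 at 0.13 and 0.15, Stat2 at 0.16 and 0.17 and Stat3 at 0.12 and 0.13. By total counts they were Jak1 0.59, Jak2 0.74, Jak3 0.81, Stat2 0.87, Stat3 0.80, Stat5a 0.52 and Stat5b 0.61. The number of all genes lower and higher was 111 and 30 with 9 Gy day 3 EVs, 60 and 59 by TMM and 33 and 121 by total counts. It was 132 and 32 with 9 Gy day 7 EVs, 76 and 75 by TMM and 31 and 143 by total counts.

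Setting counts under 20 to 20 raised values of the low samples by construction, with 6 members called for 9 Gy day 3 EVs (Jak3 at 1.12, Stat6 at -0.25), 1 between 9 Gy days and 1 for the difference of days between doses. It gave Stat6 0.0042 for 9 Gy day 7 EVs, and Jak3 0.49 and Stat6 -0.059 for 9 Gy against 2 Gy. A mean of at least 100 counts left 3 members called for 9 Gy day 7 EVs, since Jak3 and Tyk2 were not tested there. Without the 9 Gy day 3 group Stat6 was at -0.11 for 9 Gy against 2 Gy, an alternative chosen after seeing the data. Leaving out 1 sample gave 2 to 4 members called for 9 Gy day 3 EVs, 4 to 5 for 9 Gy day 7 EVs, 4 to 6 for 9 Gy against 2 Gy and 9 to 10 pairs of members, and Tyk2 passed in each of these fits of the 3 comparisons. The sign changed for Stat6 without replicate 1 of 9 Gy day 3 (range -0.070 to 0.26) and without replicate 1 of 9 Gy day 7 (range -0.13 to 0.031), and for Tyk2 with 2 Gy day 7 EVs without its replicate 3 (range -0.031 to 0.37).

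With the replicate number as a block over all groups 2 members were called for 9 Gy day 3 EVs (Jak1 and Tyk2), 5 for 9 Gy day 7 EVs and 6 for 9 Gy against 2 Gy. In a fit of the 2 groups compared, chosen after seeing the data, the block gave 2 members between 2 Gy days. The paired form of the pair test gave 0 pairs, and day 7 alone and day 3 alone gave 0 and 0, where the smallest p possible is 0.0312 for the sign flips of 6 differences and 0.1 for 3 against 3, so these designs could not pass after adjustment.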
